A study of Homo sapiens with 6 samples.

Results

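The transcripts of 6 matrix metalloproteases (MMP1, MMP2, MMP3, MMP7, MMP10 and MMP14), of 3 tissue inhibitors of metalloproteases (TIMP1, TIMP2 and TIMP3) and of carboxypeptidase A4 (CPA4) were followed in UWB1.289 cells. These 10 genes were taken by name from the 63677 gene identifiers of the count table, and all 10 were found in it. The list was drawn up with results of this comparison known and therefore counts as selected on the log2 fold changes and adjusted p values between Olaparib and DMSO, so the differences, intervals and p values of all 10 describe these libraries and are not independent evidence.

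UWB1.289 is a human ovarian cancer cell line that lacks functional BRCA1, and the sample labels give its genotype as WT in both groups. The treated group (n = 3) received 4 µM Olaparib, an inhibitor of poly(ADP-ribose) polymerases, for 24 h, and the control group (n = 3) received the solvent DMSO for the same time. The design text of the series gives 10 µM where the sample labels and the study's methods give 4 µM. The samples came from separate dishes of 1 cell line, so the p values measure the spread between cultures of that line. Libraries were made from poly(A) RNA and held 35360458 to 39640775 counts, and PCR reads without molecular identifiers are not independent molecules, so the limits set by counts cover counting error only. Of the ovarian carcinoma epithelium markers, KRT7, KRT8, KRT18, EPCAM and PAX8 were at 42.9 RPKM or more and WT1 had 8 counts in total. The summed level of the 8 epithelial markers was 3041 to 3135 RPKM (reads per kilobase of exon, scaled to library size) after DMSO and 3073 to 3209 after Olaparib, against 6.08 to 6.24 and 5.96 to 6.75 for 6 fibroblast markers, 0.256 to 0.380 and 0.325 to 0.352 for 4 leukocyte markers and 7.07 to 7.58 and 6.82 to 7.05 for 3 endothelial markers. Among those defining other cells, LUM and PECAM1 were at 0, DCN and PDGFRB had 4 and 5 counts in total, CD3E had 6, while COL1A2 (3.59 RPKM) and the endothelial cadherin CDH5 (6.96 RPKM) made up most of the fibroblast and endothelial sums. PAX8 and the endothelial VWF (327 counts in total) passed the test between the groups, with log2 fold changes of 0.10 and 0.68 (for VWF not in DESeq2, adjusted p = 0.071, and for PAX8 not with upper quartile scaling or without DMSO replicate 1, 2 or 3 or Olaparib replicate 2 or 3, adjusted p = 0.0604 to 0.206), and the part of these markers in the results was not tested. Of all genes tested, 2.15% were higher with an adjusted p under 0.05. In such bulk samples, fewer cells with a transcript and less of it per cell cannot be told apart.

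Matrix metalloproteases are zinc-dependent enzymes that cut collagens and other proteins of the extracellular matrix, and most are made as inactive precursors. MMP1 is an interstitial collagenase, MMP3 and MMP10 are stromelysins, MMP7 is the small matrilysin of epithelia, MMP2 is a gelatinase, and MMP14 is anchored in the membrane and activates the MMP2 precursor with the help of TIMP2. The TIMPs bind the active site of these enzymes, and TIMP3, which is held in the matrix, also blocks ADAM and ADAMTS proteases. CPA4 is a metallocarboxypeptidase of another family that removes single hydrophobic residues from the carboxy end of peptides.

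The 10 genes fell into an abundant group of 6 and a nearly silent group of 4. After DMSO, per exon length, TIMP1 was at 33.4 ± 0.666 RPKM (SD, n = 3), TIMP2 at 29.2 ± 0.590, MMP14 at 28.1 ± 0.206, MMP2 at 15.3 ± 0.702, CPA4 at 6.56 ± 0.0871 and TIMP3 at 2.36 ± 0.224. TIMP2 and MMP14 were neighbours in this order, and their sample ranges of 28.6 to 29.8 and 27.9 to 28.3 RPKM after DMSO did not overlap, whereas after Olaparib MMP14 (27.7 to 30.1) overlapped TIMP2 (29.8 to 30.7). The other 4 genes had at most 18 counts in any library, whereas each of these 6 had at least 351. Among the 20867 tested genes with a known length, the mean level of TIMP1 stood at the 93.7th percentile, that of TIMP2 at the 92.7th, that of MMP14 at the 92.3rd and that of MMP2 at the 86.4th. CPA4 was at the 70.6th percentile and TIMP3 at the 58.4th. The membrane-anchored MMP14, its substrate MMP2 and TIMP2 were all expressed, with 1.01, 1.04 and 1.06 TIMP2 per MMP14 (ratio of RPKM) in the DMSO samples and 1.07, 1.00 and 1.08 in the Olaparib samples. The length used was that of all annotated exons of a gene, so the order of the genes and this ratio depend on it. Which transcripts the cells made was not tested.

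**Figure D1:**
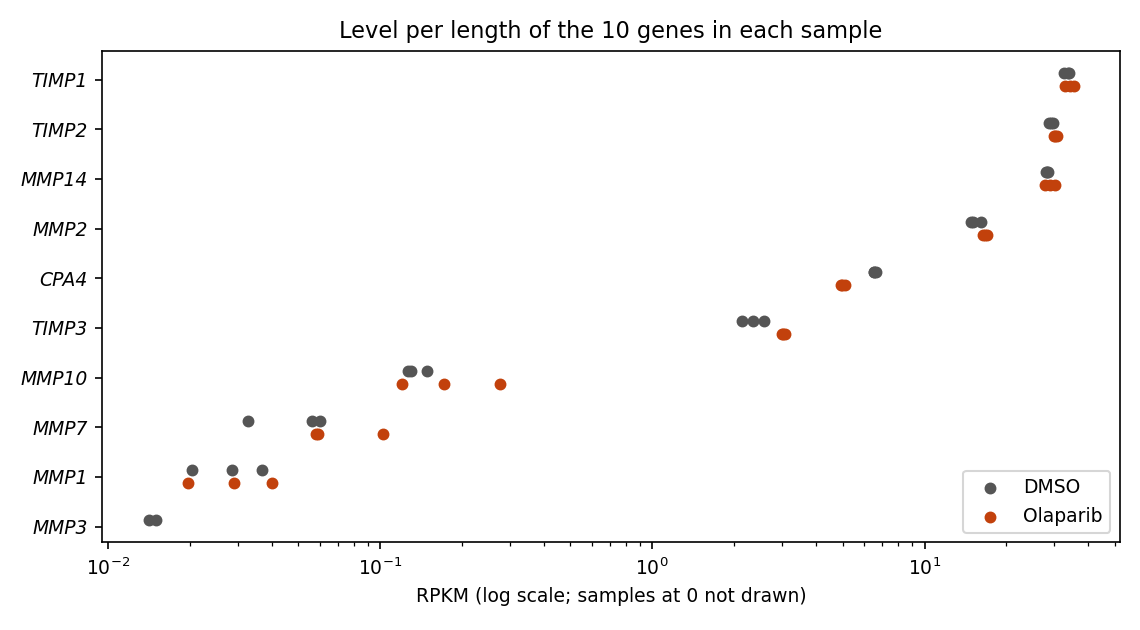
Level per exon length (RPKM, log axis) of the 10 genes in each of the 6 samples, grey for DMSO and orange for Olaparib, with samples at 0 left out. TIMP1, TIMP2, MMP14 and MMP2 lie above 14 RPKM in every sample, and MMP10, MMP7, MMP1 and MMP3 below 0.3 RPKM.

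CPA4 (ENSG00000128510, chromosome 7, 130293134 to 130324180 on GRCh38, plus strand) was lower after Olaparib. Its normalized counts were 987, 963 and 967 in the DMSO samples and 738, 730 and 755 in the Olaparib samples. The 3 treated samples lay within a narrow band far below the 3 controls, with a coefficient of variation of 1.33% in the control group and 1.74% in the treated group. The mean fell from 972 ± 12.9 to 741 ± 12.9 normalized counts (SD, n = 3 each), a change of -23.8%. The log2 fold change was -0.39 (standard error 0.047, 95% interval -0.49 to -0.30, FDR = 9.7e-07, where FDR is the p of the quasi-likelihood fit in edgeR, adjusted by Benjamini and Hochberg over the 21729 genes that entered it). By its p value CPA4 was number 4 among all falling genes. With each sample left out in turn and in the other tests and scalings the log2 fold change stayed between -0.41 and -0.38. The exons of CPA4 overlap those of no other annotated gene.

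TIMP3 (ENSG00000100234, chromosome 22, 32801705 to 32863041, plus strand) was the member that rose. Its normalized counts were 367, 444 and 405 after DMSO and 529, 516 and 519 after Olaparib. All treated samples were above all controls, and the controls were the more scattered group, with a coefficient of variation of 9.52% against 1.35%. The mean went from 405 ± 38.6 to 521 ± 7.04 normalized counts (SD, n = 3 each), or 28.6% higher. The log2 fold change was 0.36 (standard error 0.062, 95% interval 0.23 to 0.49, FDR = 3.2e-04), and it lay between 0.30 (without DMSO replicate 1) and 0.43 (without DMSO replicate 2) in the alternatives tried. Its share of the summed RPKM of TIMP1, TIMP2 and TIMP3 was 3.37%, 3.96% and 3.56% in the DMSO samples and 4.61%, 4.39% and 4.49% in the Olaparib samples. TIMP3 thus remained the scarcest of these 3 inhibitors in every sample.

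Of the 9 testable members 2, CPA4 and TIMP3, were called, that is, they had an FDR under 0.05 and differed by more than 1.2-fold in either direction (0.263 on the log2 scale). Over all genes tested, 1.21% were called by these criteria (0.723% higher and 0.483% lower) and 3.36% had an FDR under 0.05. Among the 9079 genes with a mean normalized count at or above that of TIMP3, 5.87% had an FDR under 0.05 and 0.980% were called. The median log2 fold change was 0.051 over the 9 members and -0.0042 over all genes. Since the choice of members was made with this contrast in view, the counts of members are given as a description.

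**Figure D2:**
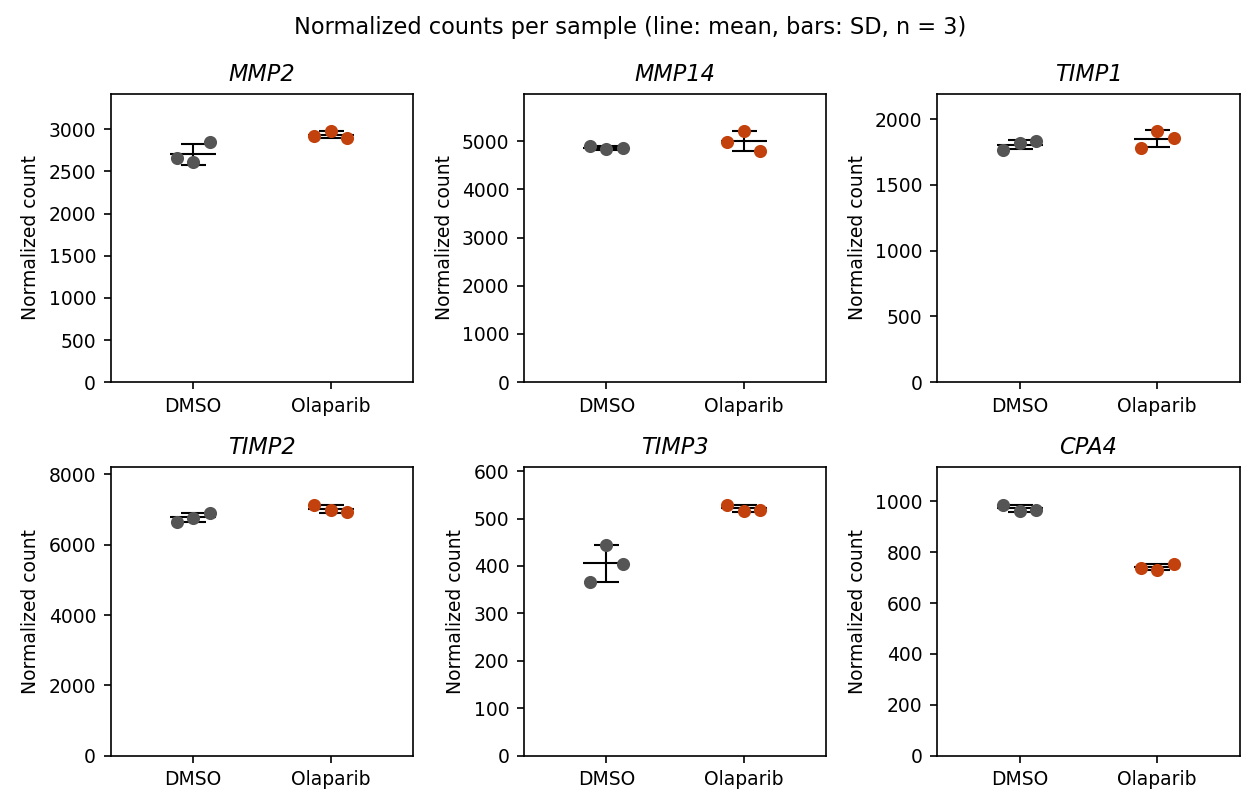
Normalized counts (linear axes from 0) of the 6 abundant genes in each sample, with the group mean and SD (n = 3 each). The groups are apart in CPA4 (730 to 755 after Olaparib, 963 to 987 after DMSO) and TIMP3 (516 to 529 against 367 to 444), and close to each other in MMP14 and TIMP1.

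RefSeq windows on GRCh38.p14, from 250 bases before to 50 bases after the start, were at hand for 6 of the 10 genes (MMP7, MMP10, MMP14, TIMP1, TIMP3 and CPA4). Shown 5′ to 3′ are those of the gene that fell, of the gene that rose, of nearly silent MMP7 and of abundant MMP14, with capitals for matches on either strand to 4 motifs. These were TGANTCA for AP-1, the JUN and FOS family of stress- and growth-responsive factors. The motif of the TATA box was TATAAA. That of ETS factors was AGGAAG, and that of the GC box, bound by SP1, was GGGCGG.
CPA4 (chr7:130292911-130293210, plus strand): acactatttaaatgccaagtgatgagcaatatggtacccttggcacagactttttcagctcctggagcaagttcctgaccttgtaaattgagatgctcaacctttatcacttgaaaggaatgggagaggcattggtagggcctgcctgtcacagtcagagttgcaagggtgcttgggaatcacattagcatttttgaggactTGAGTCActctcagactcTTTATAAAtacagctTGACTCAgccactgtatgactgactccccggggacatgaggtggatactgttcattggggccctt
TIMP3 (chr22:32801455-32801754, plus strand): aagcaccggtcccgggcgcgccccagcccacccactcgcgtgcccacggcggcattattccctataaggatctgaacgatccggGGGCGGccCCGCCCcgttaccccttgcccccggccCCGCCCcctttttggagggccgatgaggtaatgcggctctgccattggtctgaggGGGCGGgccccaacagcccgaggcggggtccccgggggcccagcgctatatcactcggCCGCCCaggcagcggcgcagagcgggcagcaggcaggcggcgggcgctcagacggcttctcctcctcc
MMP7 (chr11:102530698-102530997, minus strand): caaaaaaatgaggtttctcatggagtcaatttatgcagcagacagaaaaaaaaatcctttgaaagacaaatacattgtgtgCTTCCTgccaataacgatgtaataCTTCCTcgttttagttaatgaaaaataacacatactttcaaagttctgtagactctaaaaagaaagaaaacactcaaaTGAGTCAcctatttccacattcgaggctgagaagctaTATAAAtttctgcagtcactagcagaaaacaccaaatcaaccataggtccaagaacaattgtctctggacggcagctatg
MMP14 (chr14:22836335-22836634, plus strand): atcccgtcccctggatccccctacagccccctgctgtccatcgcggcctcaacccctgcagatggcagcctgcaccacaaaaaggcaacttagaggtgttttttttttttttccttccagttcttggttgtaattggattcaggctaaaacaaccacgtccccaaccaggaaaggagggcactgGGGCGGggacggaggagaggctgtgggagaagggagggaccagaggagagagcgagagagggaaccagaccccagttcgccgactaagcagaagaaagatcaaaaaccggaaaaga

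The CPA4 window held 2 AP-1 matches, which began 48 and 15 bases before the start, on either side of TATA box matches on both strands that overlap each other and began 30 and 28 bases before it. At least 2 such AP-1 matches were found in 0.515% of the 35116 promoter windows of the RefSeq table and at least 1 in 7.71%, and a TATA box match in 11.5%. MMP7 and MMP10 had the same pair of elements with 1 AP-1 match each, both beginning 67 bases before the start, and a TATA box match 30 and 31 bases before it. MMP7 also had 2 of the ETS matches, which 33.6% of windows contain. TIMP3 showed no match to AP-1 or TATA box but 5 GC boxes, in a window of 72.7% G and C (median of all windows 58.7%). At least 1 GC box was found in 45.0% of windows and at least 4 in 9.06%. TIMP1 had 2 GC boxes and 1 ETS match, and MMP14 had 1 GC box. A match is a run of letters and does not show that a factor bound there.

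**Figure D3:**
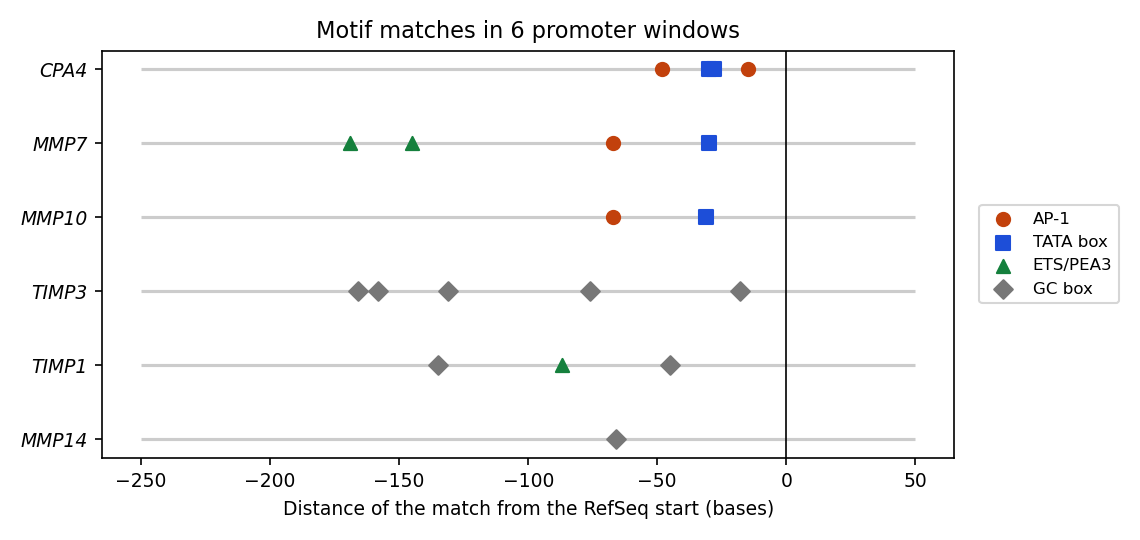
Distance in bases of each motif match from the RefSeq start (vertical line at 0) in the windows of 6 genes, with circles for AP-1, squares for TATA box, triangles for ETS and diamonds for GC box. CPA4, MMP7 and MMP10 carry AP-1 and TATA box matches within 67 bases before the start, and TIMP3, TIMP1 and MMP14 carry GC boxes.

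MMP2, the gelatinase (ENSG00000087245, chromosome 16, 55389700 to 55506691, plus strand), had 2654, 2610 and 2843 normalized counts after DMSO and 2925, 2977 and 2895 after Olaparib. The groups did not overlap, but the highest control came close to the lowest treated sample. The log2 fold change was 0.12 (standard error 0.040, 95% interval 0.036 to 0.20), which is 8.50% between the means, and it missed the threshold over all genes (FDR = 0.110, and 0.0469 with the replicate number as a block). Of its exonic bases, 3.70% overlap a further annotated gene.

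MMP14 (ENSG00000157227, chromosome 14, 22836560 to 22849041, plus strand), the membrane-anchored activator of MMP2, had 4899, 4827 and 4858 normalized counts after DMSO and 4981, 5208 and 4795 after Olaparib. The treated samples enclosed the controls. Its log2 fold change was 0.039 (95% interval -0.031 to 0.11, FDR = 0.666), so the interval reaches from 2.10% lower (-2.10%) to 7.80% higher. MMP14 was the most evenly measured gene of the list in the controls, with a coefficient of variation of 0.733%.

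TIMP1 (ENSG00000102265, chromosome X, 47582408 to 47586789, plus strand), a secreted inhibitor, had 1766, 1815 and 1836 normalized counts after DMSO and 1779, 1908 and 1859 after Olaparib. The groups overlapped, with a log2 fold change of 0.034 (95% interval -0.051 to 0.12, FDR = 0.782). TIMP2 (ENSG00000035862, chromosome 17, 78852977 to 78925387, minus strand) had 6643, 6771 and 6917 normalized counts after DMSO and 7142, 6991 and 6929 after Olaparib. These groups were just apart, and the log2 fold change of 0.051 (95% interval -0.011 to 0.11, FDR = 0.468) did not pass. For TIMP2, 9.52% of the exonic bases overlap CEP295NL or a further gene, and the strand setting of the counting is not stated, so its counts are uncertain to that extent. In all, 4 of the 10 genes had groups that did not overlap (MMP2, TIMP2 and TIMP3 higher, CPA4 lower), where 19.3% of all genes tested did (10.0% higher and 9.29% lower).

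**Figure D4:**
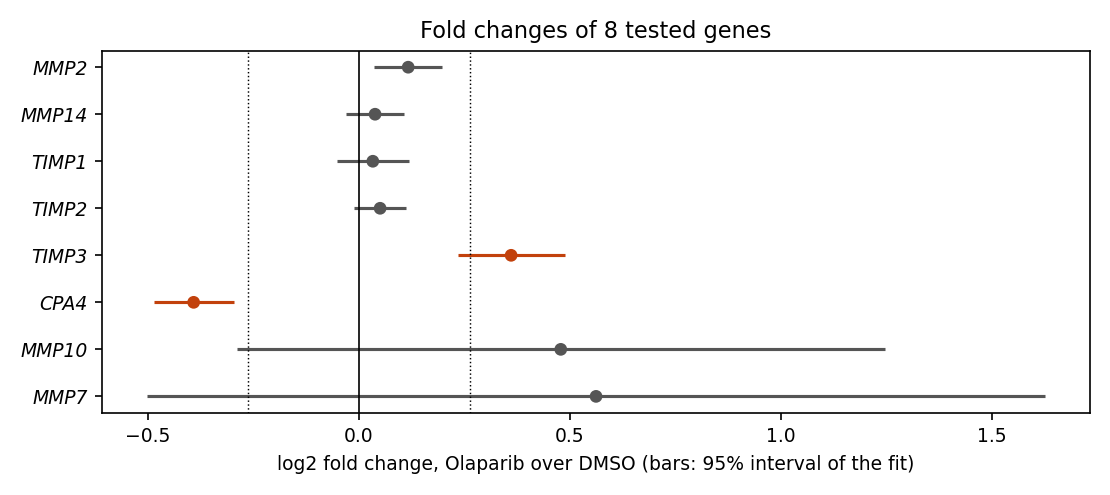
Log2 fold change of Olaparib over DMSO for 8 of the 9 tested genes (MMP1, at about the floor, is not drawn), with the 95% interval of edgeR's fit, a line at 0 and dotted lines at a fold of 1.2 either way, orange where the FDR is under 0.05. CPA4 (-0.39) and TIMP3 (0.36) stand apart from 0, MMP14, TIMP1 and TIMP2 are held near it by narrow intervals, and MMP10 and MMP7 have intervals over 1.5 wide.

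The 4 nearly silent genes lie within one cluster of chromosome 11, MMP7 at 102520508 to 102530750, MMP10 at 102770502 to 102780628, MMP1 at 102789401 to 102798160 and MMP3 at 102835801 to 102843609, all on the minus strand. MMP10 (ENSG00000166670) had raw counts of 8, 10 and 9 after DMSO and 18, 11 and 8 after Olaparib. Olaparib replicates 1 and 2 stood above the controls, the second by 1 count, and Olaparib replicate 3 was as low as the lowest of them. The log2 fold change was 0.48 (95% interval -0.29 to 1.25, FDR = 0.614). MMP7 (ENSG00000137673) had 5, 5 and 3 counts after DMSO and 5, 5 and 9 after Olaparib, with a log2 fold change of 0.56 (95% interval -0.50 to 1.63, FDR = 0.688). MMP1 (ENSG00000196611) had 2, 3 and 4 counts in the one group and 2, 4 and 3 in the other, at about the floor of 3 counts per library. MMP3 (ENSG00000149968) had 1, 1 and 0 counts after DMSO and 0 in each Olaparib sample, 2 in total, and did not pass the filter of more than 10 counts. No change of these 4 genes could be measured at this depth, and no fold is given here for MMP1 and MMP3, whose groups are at about or under the floor. MMP3 and MMP10 are related in sequence, 8.14% of the exonic bases of MMP1 and 1.73% of those of MMP3 overlap the pseudogene WTAPP1 on the other strand, and with the strand setting not stated their few counts are uncertain.

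The rest of the chromosome 11 cluster was as silent. MMP8, MMP12, MMP13, MMP20 and MMP27 had 1, 0, 7, 2 and 5 counts over all 6 samples. Whether the 0 of MMP12 reflects its identifier was not tested. The other protein-coding genes within 250 kb were expressed, with TMEM123 at 78.6 RPKM, BIRC2 at 13.2, DCUN1D5 at 7.77 and BIRC3 at 4.34. BIRC3, an inhibitor of apoptosis induced by NF-kB, was the one with an FDR under 0.05, with a log2 fold change of 0.23 (FDR = 0.00854, and 0.0967, 0.0529 and 0.0539 without DMSO replicate 2, DMSO replicate 3 and Olaparib replicate 1). Of all genes tested, 2.15% were higher by that rule. Around CPA4, none of the 8 tested protein-coding genes within 250 kb had an FDR under 0.05 in edgeR's test, and 2 (KLHDC10 and COPG2) had an unadjusted p under 0.05, where 14.8% of all genes tested did. MEST, the abundant imprinted gene of that region (52.2 RPKM, with 27.6% of its exonic bases overlapping other genes), had a log2 fold change of -0.048 (FDR = 0.490). CPA1 and CPA5, which encode carboxypeptidases as well, had 1 and 25 counts in total, against 5147 for CPA4, and SSMEM1 had 1.

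Of the 17 other MMP genes, 9 passed the filter on low counts, and none had an FDR under 0.05 in edgeR's test (2, MMP15 and MMP17, at an unadjusted p under 0.05, as 14.8% of all genes tested were). Among the 9, 1 was higher and 8 were lower after Olaparib, with a median log2 fold change of -0.18 (-0.0042 over all genes tested). Of the lower genes, all but MMP17 had 95% intervals that include 0. MMP19, MMP23B and MMP25 had only 35, 44 and 47 counts in total. The membrane-anchored MMP15 was the most abundant (12.2 RPKM), with a log2 fold change of 0.12 (FDR = 0.0950), followed by MMP24 (7.90 RPKM). MMP17 had a log2 fold change of -0.18 (FDR = 0.198). MMP9, the other gelatinase, had 156 counts in total, MMP26 had 2, and MMP21 and MMP28 had 0. Whether these 0 counts reflect identifiers that differ between annotation releases was not tested. The list of other metalloprotease inhibitors held 6 genes, all testable. With an FDR under 0.05, 0 rose and 1 fell, where 1.21% of all genes tested were lower by that rule. TFPI2, a secreted inhibitor of serine proteases that also acts on some MMPs, was the most abundant of them at 114 RPKM. It averaged 10833 ± 197 normalized counts after DMSO and 10099 ± 151 after Olaparib (log2 fold change -0.10, FDR = 0.0397), with FDR values of 0.0650 to 0.204 when DMSO replicate 1, 2 or 3 or Olaparib replicate 2 or 3 was left out. RECK, a membrane-anchored inhibitor, and LXN, which inhibits carboxypeptidases of the CPA4 family, had log2 fold changes of 0.075 and 0.038 (FDR = 0.721 and 0.925), and TIMP4 had 23 counts in total.

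The ADAMTS genes, secreted metalloproteases with thrombospondin repeats that cut proteoglycans and procollagens, were the family with the most calls among the lists. Of the 19 genes listed, 17 were testable, 5 of these rose with an FDR under 0.05 and 0 fell, where 2.15% of all genes tested were higher by that rule. By the rule that adds a fold of 1.2, 3 of the 17 were called, all higher, where 0.723% of all genes were. The median log2 fold change over the 17 was 0.11, 14 lay above 0 and 3 below, and in 7 the treated samples were all above the controls (10.0% of all genes tested). ADAMTS9 (ENSG00000163638, chromosome 3, 64515654 to 64688000), a proteoglycan-cleaving enzyme, had 641, 663 and 587 normalized counts after DMSO and 989, 942 and 928 after Olaparib. All 3 treated samples were far above the controls. Its log2 fold change was 0.60 (standard error 0.051, FDR = 1.9e-09). ADAMTS14 (ENSG00000138316, chromosome 10), a procollagen peptidase, had 253, 280 and 264 normalized counts after DMSO and 380, 403 and 310 after Olaparib, a log2 fold change of 0.45 (standard error 0.081, FDR = 5.1e-04). Olaparib replicate 3 was the lowest treated sample here and still above the controls. ADAMTS18 (ENSG00000140873, chromosome 16) averaged 866 ± 12.7 normalized counts after DMSO and 1069 ± 57.7 after Olaparib (log2 fold change 0.30, FDR = 9.5e-05). ADAMTS15 (7.07 RPKM) and ADAMTS12 (8.87 RPKM), the most abundant of the list, rose by less, with log2 fold changes of 0.22 and 0.16 (FDR = 0.00256 and 0.00945), and for ADAMTS12 the FDR was 0.0523 without DMSO replicate 3. ADAMTS1, of similar level (5.42 RPKM), had a log2 fold change of 0.043 (FDR = 0.717). ADAMTS2 and ADAMTS10 had 0 and 10 counts in total.

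**Figure D5:**
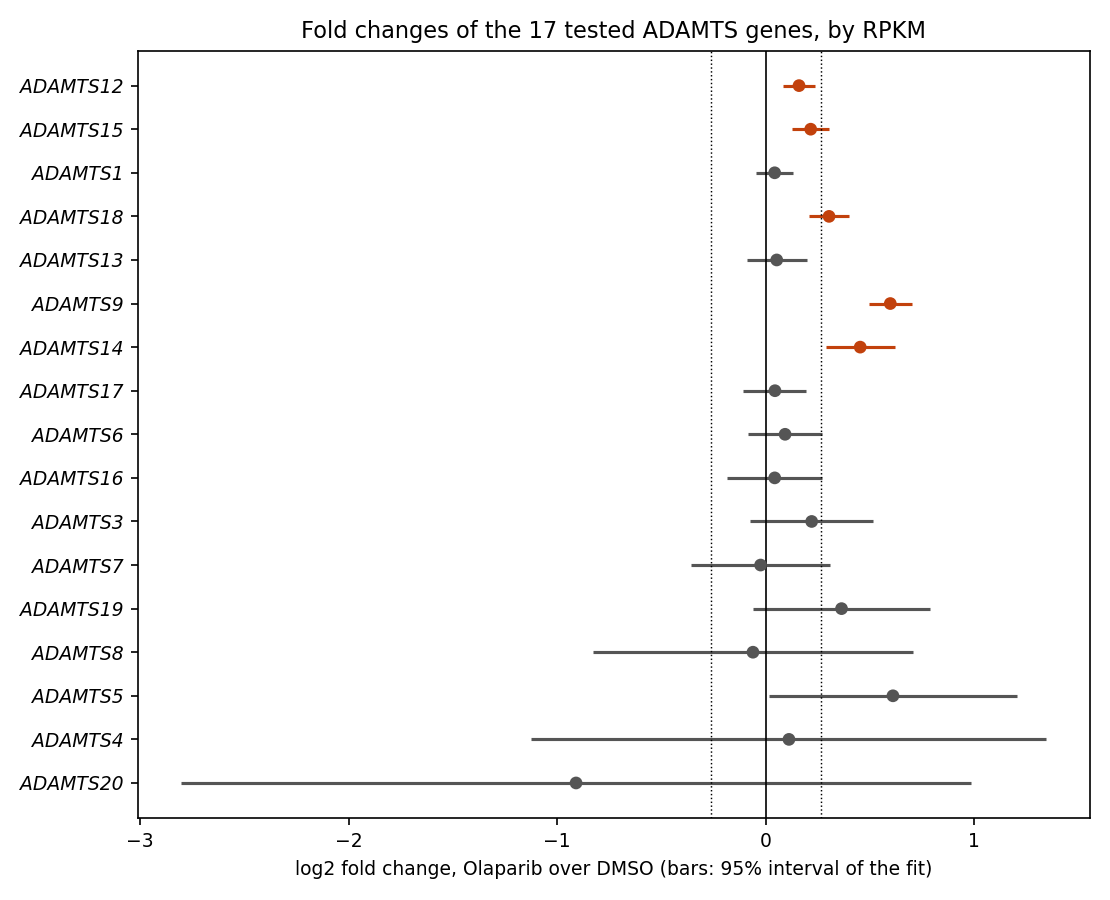
Log2 fold change of Olaparib over DMSO for the 17 tested ADAMTS genes, ordered from the highest RPKM at the top, with the 95% interval of edgeR's fit, dotted lines at a fold of 1.2 either way, and orange where the FDR is under 0.05. The 5 orange genes (ADAMTS12, ADAMTS15, ADAMTS18, ADAMTS9 and ADAMTS14) all lie to the right of 0, between 0.16 and 0.60.

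Of the 20 ADAM genes listed, membrane-anchored sheddases and their relatives, 14 were testable. With an FDR under 0.05, 1 rose and 0 fell, where 2.15% of all genes tested were higher by that rule. The gene that rose was ADAM10, with a log2 fold change of 0.12 (FDR = 0.0271, and 0.154, 0.163 and 0.105 without DMSO replicate 2, DMSO replicate 3 and Olaparib replicate 1). ADAM17, the sheddase of TNF that TIMP3 inhibits, had a log2 fold change of 0.046 (FDR = 0.604), and ADAM15 was the most abundant at 45.8 RPKM. ADAM2, ADAM7, ADAM18, ADAM29, ADAM30 and ADAM33 had at most 4 counts in total. The 3 testable astacins, of which TLL2 was the most abundant (2.43 RPKM), gave no FDR under 0.05 in edgeR's test and 0 genes at an unadjusted p under 0.05, and MEP1A, MEP1B and ASTL had 2, 5 and 10 counts in total. Among the 19 other listed carboxypeptidases of the M14 family in the table (AGBL1 was not analysed here), 12 were testable. None had an FDR under 0.05, with 2 at an unadjusted p under 0.05 (CPD and AGBL3), as 14.8% of all genes tested were. CPD, a carboxypeptidase of the secretory pathway, had a log2 fold change of 0.11 (FDR = 0.164) and AGBL5, which acts on tubulin and was the most abundant (6.89 RPKM), of 0.0086 (FDR = 0.954). CPA1, CPA3, CPA6, CPB1, CPN1, CPZ and CPXM2 had at most 10 counts in total. Of the M14 genes listed here and tested, CPA4 alone passed the threshold. AGBL3, with 547 counts in total, had a log2 fold change of the same size as CPA4, -0.39 (95% interval -0.66 to -0.13, FDR = 0.103). All its treated samples were below the controls, so a fall of this size was not particular to CPA4.

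Of 10 genes that activate, dock or clear these enzymes, 9 were testable. With an FDR under 0.05, 1 rose and 0 fell, where 2.15% of all genes tested were higher by that rule. CD44, a hyaluronan receptor that docks MMPs at the cell surface, had a log2 fold change of 0.13 (FDR = 0.0201, and 0.195, 0.0599 and 0.0768 without DMSO replicate 2, DMSO replicate 3 and Olaparib replicate 1). FURIN, the convertase that activates the MMP14 precursor, had a log2 fold change of 0.0011 (FDR = 0.989), PLAU, the urokinase that forms plasmin and the most abundant gene of this list at 274 RPKM, had 0.043 (FDR = 0.483), and PLG, the plasmin precursor, had 2 counts in total. Of 12 AP-1 and ETS factors known to bind MMP promoters, 4 rose and 0 fell with an FDR under 0.05, where 2.15% of all genes tested were higher by that rule and 5.87% of the 9079 genes at or above the level of TIMP3 passed it in either direction. FOSL2 had the largest of these log2 fold changes at 0.21 (FDR = 1.0e-04), ETS2 had 0.17 (FDR = 0.0120, and 0.100 without DMSO replicate 3), JUN had 0.13 (FDR = 0.0176, and 0.0535 to 0.121 without DMSO replicate 1, 2 or 3 or Olaparib replicate 2) and ETS1 had 0.11 (FDR = 0.0338, and 0.135 to 0.231 without DMSO replicate 2 or 3 or Olaparib replicate 1, and 0.0552 with upper quartile scaling). JUNB, the most abundant at 63.5 RPKM, had 0.026 (FDR = 0.801). Over the 12 factors, 8 log2 fold changes lay above 0 and 4 below. JUND, among those below, had -0.11 (95% interval -0.20 to -0.017, FDR = 0.220).

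The genes whose log2 normalized counts over the 6 samples, each centred on its own mean, ran closest to a changed member were looked up among the 11991 genes whose counts averaged 100 or more. For CPA4 they were CCBE1, EME2 and DTL, with root mean square differences of 0.0423, 0.0425 and 0.0478 and log2 fold changes of -0.37, -0.38 and -0.32. CCBE1 is a secreted matrix protein of lymphatic growth, EME2 a subunit of a structure-specific endonuclease and DTL a subunit of a ubiquitin ligase active in S phase. For TIMP3 they were OVOL1, an epithelial transcription factor, AKAP6, an anchor of protein kinase A, and GABBR2, a subunit of the GABA-B receptor, with differences of 0.0406, 0.0407 and 0.0455 and log2 fold changes of 0.38, 0.31 and 0.45, of which that of AKAP6 did not pass (FDR = 0.106). These are descriptions over 6 samples of 2 groups.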

How the data were processed

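Poly(A) RNA of 6 UWB1.289 samples was sequenced. The authors trimmed adapters (Trimmomatic), mapped reads to GRCh38 (STAR), identified PCR duplicates (Picard) and deposited whole-number counts per gene made with featureCounts, without normalization. Removal of duplicates and the strand setting are not given in the sources used here. The table has 1 line per gene and sample, and its sample names, matched to the sample descriptions, gave each sample's group.

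Genes with more than 10 counts in total (21729) were kept and compared with edgeR 4.0.16 (quasi-likelihood, TMM, Benjamini-Hochberg over all genes; R 4.3.3). Calls required an adjusted p under 0.05 and, where said, a fold of 1.2. Normalized counts are scaled to the mean library. Standard errors were derived from the F statistic. Exon lengths for RPKM, positions and symbols came from GENCODE release 44 (81.9% of identifiers matched, 96.0% of those tested), promoters from RefSeq (GRCh38.p14). Whether a gene's total of 0 counts reflects a differing identifier was not tested. Limma 3.58.1 and DESeq2 1.42.0 were alternatives. The test was tried on simulated data. The members and lists were chosen with earlier results of these data known. The lists are families or functional groups written from general knowledge, and not every family is listed in full. From them, genes with an adjusted p under 0.05, the most abundant gene and untestable genes were named, and a few others were added once values were known. Replicates of a group differed beyond sampling noise (chi-square per degree of freedom 1.81 to 4.11).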

Additional observations from a re-analysis of the deposited data

How the results depend on the processing

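Both calls among the members (CPA4 lower, TIMP3 higher) were kept in every alternative tried, and the count of members called was 2 throughout, also with each sample left out (2 to 2). The 3 called genes of the lists were 3 in each of these fits (3 to 3 with a sample left out), and 12 with no fold-change threshold. Over all genes 262 were called, against 150 with DESeq2, 730 with no fold-change threshold and 178 to 237 with a sample left out. Of 114 member values under 13 alternatives, 2 changed sign, both of MMP1 (-0.15 without DMSO replicate 1 and -0.23 without Olaparib replicate 2, in a range from -0.232 to 0.2482 with a sample left out), which has 18 counts in total, at about the floor, so that these fitted values measure no change, and 1, MMP2, passed an adjusted p of 0.05 with the replicate block. Deviations from the group mean correlated at -0.212, 0.264 and -0.328 between same-numbered samples. Olaparib replicate 3 correlated at 0.491 with DMSO replicate 1 and at -0.38 with DMSO replicate 2. With 3 samples in a group such values cannot decide whether samples were paired, and the block stands for the replicate number only. With it 291 genes were called and 2 members, as without it. The scalings moved the median log2 fold change of all genes by 0.0105 at most. The causes of these differences were not tested. The counts of MMP1, MMP3, MMP7 and MMP10 set the limit of what depth allows.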
